A study of Mus musculus with 6 samples.

Results

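Transcription factors of the forkhead (Fox), SRY-box (Sox), Gata, Krüppel-like (Klf), Hox, Nkx and T-box (Tbx) families were followed in lungs of mice with ovalbumin (OVA) challenge. Genes were taken by the start of their platform symbol, and those with a value on at least 4 of 6 arrays were kept, with 1 probe each. This gave 80 genes out of 9774 genes with a symbol that were measured as often. Foxp3, Foxj1, Gata3 and Klf4 were set aside. The platform carried 119 symbols of these families. The 22 without a value on any array were Foxa2, Foxb1, Foxf2, Hoxa3, Hoxa9, Hoxa10, Hoxa13, Hoxb1, Hoxb5, Hoxb6, Hoxb8, Hoxc6, Hoxc8, Hoxd3, Klf3, Klf9, Nkx2-1, Nkx6-3, Sox6, Sox13, Sox21 and Tbx21. The 17 measured on 1 to 3 arrays were Foxd2, Foxk1, Foxm1, Foxn3, Foxp2, Foxq1, Hoxa4, Hoxa11os, Hoxb9, Hoxb13, Hoxc9, Hoxd3os1, Hoxd12, Nkx2-9, Nkx3-2, Sox5 and Tbx5. One entry kept by its symbol, Sox6os, is an antisense transcript of the Sox6 locus and not a factor.

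Each of the 6 arrays compared amplified lung RNA of 1 C57 mouse, sensitized to OVA and then challenged with it, with a single pool of amplified lung RNA from control C57 mice. Ages, sex and the number of pooled mice were not stated in the sources used. Values are deposited log2 ratios between these channels, centred on each array's median, and are differences between the channels, never levels. The labels do not state the direction of the ratio, the dyes or the base of the logarithm. Titles name the OVA mouse first, yet Clca1 and Muc5ac, mucous cell genes known to be induced by OVA challenge, had mean ratios of -3.06 and -2.63. Signs are therefore those of the deposited ratio, no sign is read as higher in OVA lung, and folds apart assume base 2. The pool is 1 control sample, so the spread between control mice does not enter any test, and without a dye swap a gene's dye effect and its difference between OVA lung and pool cannot be told apart. In whole lung, fewer cells of a type and less RNA per cell also cannot be told apart.

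The arrays held 10922 to 13132 measured probes, and their number limits the precision. Pairwise correlations across 8663 probes, which are not independent replicates, lay between 0.17 and 0.86. Mouse 3 stood apart: the SD of its ratios was 0.21, against 0.32 to 0.47 on the other arrays, and its correlations with them were 0.17 to 0.42. The mucous marker list described later had a mean ratio of 0.19 in that mouse, against -2.17 to -1.46 in the other mice. The array of mouse 1 resembled those of mice 2 and 4 (0.82 to 0.86), and mouse 5 resembled mouse 6 (0.85); no batch is named for this split. For 10 control sequences that are each spotted 17 times, the SD of repeats within an array, as a median over arrays, was 0.081 to 0.23 depending on the sequence. Ratios cannot show whether a lung marker is present, so the labelled tissue was not checked by level.

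Members of these families bind DNA through a domain shared within each family: the winged helix of forkhead factors, the HMG box of Sox factors, zinc fingers of Gata and Klf factors, the homeodomain of Hox and Nkx factors and the T-box. Many of them set up tissue identity in the embryo and hold it in the adult. In the lung, Foxa and Nkx2-1 factors maintain the epithelium, Sox2 marks the conducting airways and Sox9 the growing tips, Hoxa5 and Tbx2 act in the mesenchyme, and Sox17, Sox18 and Klf2 act in vessels.

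Differences were small. Of the 80 genes, 23 passed an adjusted p of 0.05 (limma against 0, Benjamini-Hochberg over all 11629 tested probes), 15 with a positive and 8 with a negative mean. That is 28.8% of the genes, against 24.4% of all tested probes, 12.0% positive and 12.3% negative, so the share called was near that of the table as a whole. The median mean ratio was -0.0025 over the 80 genes and -0.0033 over all tested genes. Ratios of the 23 called genes put them between 1.09-fold and 1.58-fold apart from the pool, 2 of them with a mean of 0.5 or more in size, 15 between 0.2 and 0.5 and 6 under 0.2. None of the 80 was 2-fold apart on average, against 1.53% of all tested probes, a share too low to set 80 genes apart. The median size of the mean ratio was 0.129 over the 80 genes and 0.116 over all tested genes, so small differences were not particular to these families. All 23 called genes had the same sign in each mouse with a value, 20 of them on 6 arrays and 3 on 5. A test against 0 on so few mice favours such genes, so this adds no support to the calls. Among genes on 6 arrays, called or not, 39.2% of the followed genes had 1 sign in all mice, against 30.7% of all tested genes.

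Calls were sensitive to which mice were fitted. Without mouse 4 there were 13 called genes, and without mouse 2 or mouse 6 there were 14 each, when 11.5%, 11.8% and 14.8% of all probes were called. Leaving out mouse 5 left 19, with 17.5% of all probes called. Leaving out mouse 1 or mouse 3 gave 23, with 20.3% and 25.9% of all probes called, and 20 of these were among the 23 found with all mice in either case. A set of 11 genes kept its call without any single mouse: Foxl1, Foxn1, Sox4, Sox15, Sox6os, Hoxa5, Hoxb3, Hoxb7, Hoxd8, Tbx1 and Tbx6. The other 12 lost it without at least 1 mouse. Foxa1, Klf17 and Hoxd11 gained a call without mouse 1, and Klf15, Hoxa11 and Tbx20 without mouse 3. In each of these genes the mouse left out was the only one of its sign. Leaving it out narrows the spread by construction, so passing without it adds no support.

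**Figure D1:**
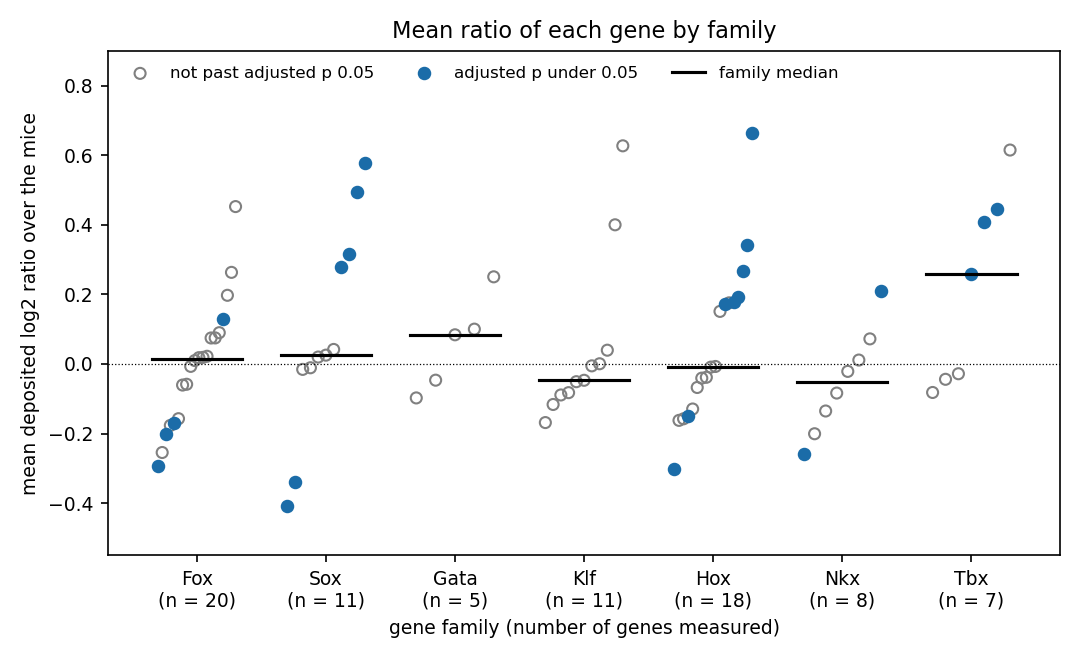
Mean deposited log2 ratio of each of the 80 genes (vertical axis) by family (horizontal axis); filled points passed adjusted p 0.05, open points did not, and bars are family medians. Sox, Hox and Tbx hold most filled points, while all points of Gata and Klf are open.

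Promoters of the called genes with the 2 lowest and the 2 highest means among those with an entry are shown because they border the genes these results turn on. They run from 250 bases before to 50 after the annotated start, 5′ to 3′ on the gene's strand (RefSeq, GRCm38.p6). Sox2 lies at chr3:34649745-34650044 (+), Sox4 at chr13:28953650-28953949 (-), Hoxa5 at chr6:52204538-52204837 (-) and Sox6os at chr7:116031729-116032028 (+). Capitals mark bases of any match, on either strand, to the motif of a family (TGTTTAC for Fox, ACAAAG for Sox, AGATAA for Gata, CCNCNCCC for Klf, TAATTA for Hox, CACTTG for Nkx, AGGTGT for Tbx) or to the GC box GGGCGG. The Klf motif and the GC box can share bases, and CACTTG is also a form of the E-box.
Sox2: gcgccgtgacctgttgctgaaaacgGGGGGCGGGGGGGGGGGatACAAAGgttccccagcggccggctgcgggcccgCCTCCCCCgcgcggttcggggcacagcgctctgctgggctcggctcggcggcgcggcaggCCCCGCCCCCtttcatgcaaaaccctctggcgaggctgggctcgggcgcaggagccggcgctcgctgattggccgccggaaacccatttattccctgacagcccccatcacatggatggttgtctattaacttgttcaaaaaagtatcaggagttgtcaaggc
Sox4: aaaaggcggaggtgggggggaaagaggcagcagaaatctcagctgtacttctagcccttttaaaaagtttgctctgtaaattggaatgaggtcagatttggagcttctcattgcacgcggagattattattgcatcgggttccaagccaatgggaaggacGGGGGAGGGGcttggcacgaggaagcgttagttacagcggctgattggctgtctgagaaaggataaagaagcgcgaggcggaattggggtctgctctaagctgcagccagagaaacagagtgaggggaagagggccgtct
Hoxa5: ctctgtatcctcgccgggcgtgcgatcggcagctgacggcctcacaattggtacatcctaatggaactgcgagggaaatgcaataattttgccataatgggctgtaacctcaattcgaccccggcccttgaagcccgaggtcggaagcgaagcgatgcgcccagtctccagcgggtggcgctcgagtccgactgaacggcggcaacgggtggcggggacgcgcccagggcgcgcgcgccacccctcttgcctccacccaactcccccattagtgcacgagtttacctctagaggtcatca
Sox6os: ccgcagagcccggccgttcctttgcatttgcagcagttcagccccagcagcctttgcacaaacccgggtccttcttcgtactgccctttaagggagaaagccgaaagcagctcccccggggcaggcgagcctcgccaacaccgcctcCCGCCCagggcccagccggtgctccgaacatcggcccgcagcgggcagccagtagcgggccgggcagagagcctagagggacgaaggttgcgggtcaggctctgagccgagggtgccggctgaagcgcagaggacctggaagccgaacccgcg
The Sox2 promoter holds a Sox motif 206 bases before the start beside a run of Klf matches, Sox4 holds Klf matches alone, Sox6os a GC box alone, and Hoxa5 none of these letters in this window.

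An entry existed for 57 of the 80 genes, and the first listed was used for each gene. The Klf motif was present in 82.5% of these promoters, against 49.1% of 27025 promoters of all genes, and the GC box in 64.9%, against 35.9%. Base composition differed in the same way, with a median GC content of 62.3% in the 57 promoters and 52.7% in all. The Fox, Sox, Gata, Nkx and Tbx motifs were present in 1.75%, 15.8%, 3.51%, 8.77% and 5.26% of the 57, against 3.55%, 18.7%, 11.4%, 13.5% and 13.9% of all promoters. For the Hox motif the shares were 7.02% and 5.31%. Among 17 promoters of called genes, 12 held the Klf motif and 4 the Sox motif. A match of such short letters describes the sequence and does not show a bound site.

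Sox genes had 6 calls among 11 measured (54.5%, against 24.4% of all tested probes), 4 positive and 2 negative, and a median mean ratio of 0.025. These genes and the positive calls include Sox6os, which is not a factor. Shares by family rest on few genes and were not compared by a test. Sox2, which maintains progenitors of the conducting airways, was the lowest of all 80 genes: its ratio was between -0.69 and -0.045 with a median of -0.42, and its mean of -0.41 ± 0.26 (SD, n = 6) put it 1.33-fold apart (adjusted p = 0.0195). Mice 5 and 6 were lowest and mouse 1 was near 0. The call was lost without mouse 2 or mouse 6, with an adjusted p of up to 0.061. Sox4, a factor of progenitor and lymphoid cells, lay between -0.50 and -0.13 around a median of -0.34, with a mean of -0.34 ± 0.16 (adjusted p = 0.0102). Its lowest values were those of mice 1, 2 and 4.

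Sox11, which belongs to the same subgroup as Sox4, was on the other side, from 0.13 to 0.53 with a median of 0.25 and a mean of 0.28 ± 0.16 (adjusted p = 0.0178). A second Sox11 probe on 6 arrays had a mean of 0.12 and did not pass (adjusted p = 0.0667), and the first lost its call without mouse 6 (adjusted p = 0.054). Sox15, a factor known from muscle progenitors, was at 0.32 ± 0.13 and positive in 6 of 6 mice, between 0.19 and 0.52 (adjusted p = 0.00836). The antisense transcript Sox6os was between 0.15 and 0.69, with mice 3 and 5 at 0.19 and 0.15 and the other mice between 0.63 and 0.69; its mean was 0.50 ± 0.25 (adjusted p = 0.0105). Whether its spot detects 1 strand alone was not stated in the sources used.

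Sox18, Sox17 and Sox7 form the subgroup of endothelial cells. Sox18 was at 1.34 in mouse 1 and between 0.16 and 0.64 in the other mice, with a mean of 0.58 ± 0.41 (1.49-fold apart, adjusted p = 0.0249). All mice were on the positive side, and mouse 1 was the highest. The call was lost without mouse 2, 4 or 6 (adjusted p up to 0.067), and without mouse 1 the mean was 0.43 and passed (adjusted p = 0.0161). Its probe lies 6 numbers from a stronger unnamed probe with a mean of 1.12; the part of that probe in its value was not tested. Sox17 had ratios of 0.52, -0.071, 0.31, 0.034, -0.38 and -0.16 in mice 1 to 6, on both sides of 0, and Sox7 was at -0.011 ± 0.076 (n = 5). The 7 measured genes of a 10-gene endothelial marker list had a median of 0.24, with 3 positive calls, Ramp2 at 1.09, Tek at 0.93 and Tie1 at 0.36, and no negative one. The uncalled markers lay on both sides, Pecam1 at -0.36 and Emcn at -0.14, Cldn5 at 0.24 and Esam at 0.14. The probes of Tek and Pecam1 also lie near a stronger one. The list's mean was 0.78 in mouse 1, 0.45 in mouse 2 and 0.073 to 0.27 in the other mice; its part in the Sox18 values was not tested. In mouse 1, Sox17 and Sox18 were both at their highest. Sox9, Sox10 and Sox14 had means between -0.016 and 0.025 and did not pass.

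**Figure D2:**
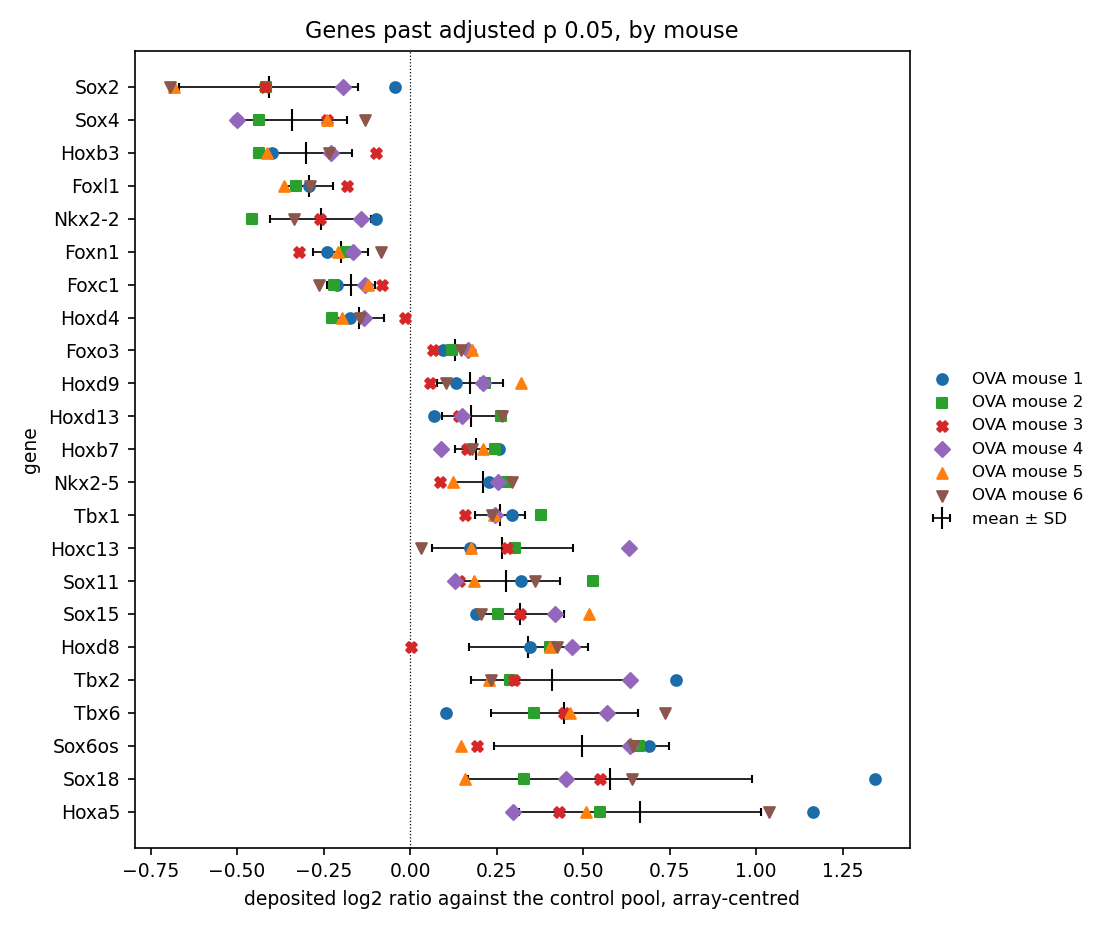
Deposited log2 ratio (horizontal axis) of the 23 genes past adjusted p 0.05 (rows, lowest mean at the top), with a symbol for each OVA mouse and the mean ± SD. Points of a gene lie on 1 side of 0 throughout, mouse 3 is at 0.002 for Hoxd8, and the widest spread is that of Sox18.

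Hox genes set position along the body axis from 4 chromosomal clusters. They had 8 calls among 18 measured genes (44.4%, against 24.4% of all tested probes), 6 positive and 2 negative, and a median of -0.0082. Hoxa5, required for lung development, had the highest mean of the 80 genes. It was at 1.16 and 1.04 in mice 1 and 6 and between 0.30 and 0.55 in mice 2 to 5, and its mean of 0.66 ± 0.35 put it 1.58-fold apart from the pool (adjusted p = 0.0107). The call held without any single mouse (adjusted p up to 0.0349). Hoxd8 was next at 0.34 ± 0.17 (adjusted p = 0.0117), between 0.35 and 0.47 in 5 mice and at 0.002 in mouse 3. Hoxb7 was at 0.19 ± 0.062, with all mice between 0.089 and 0.26 (adjusted p = 0.0124). On the negative side, Hoxb3 was at -0.30 ± 0.13, between -0.44 and -0.10 (adjusted p = 0.0104). Its probe lies 6 numbers from that of Melk, whose mean was -1.70, and the part of that probe was not tested.

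Of the other Hox calls, Hoxc13 at 0.27 ± 0.20, Hoxd13 at 0.18 ± 0.085 (n = 5), Hoxd9 at 0.17 ± 0.094 and Hoxd4 at -0.15 ± 0.073 had adjusted p-values between 0.0282 and 0.039. Hoxc13, a factor of hair and nail, was at 0.63 in mouse 4 and between 0.031 and 0.30 in the others. Hoxd13, a limb factor, had all its values between 0.068 and 0.27, and Hoxd9 had its values between 0.058 and 0.32 with mouse 5 highest. Hoxd4 was near 0 in mouse 3, at -0.015, and between -0.23 and -0.13 in the other mice. Each was lost without several single mice, with adjusted p-values of up to 0.12. Hoxd4 lost its call without mouse 1, 2, 4, 5 or 6, Hoxc13 without mouse 1, 2, 3, 4 or 5, Hoxd9 without mouse 2, 4, 5 or 6 and Hoxd13 without mouse 2, 3, 4 or 6. The remaining 10 Hox genes had means between -0.16 and 0.18. Hoxd11 was at -0.35 in mouse 1 and between 0.18 and 0.39 in the other mice, and passed without mouse 1 (mean 0.25, adjusted p = 0.017). Hoxa11 was negative in every mouse but mouse 3, with a mean of -0.13 ± 0.091, and passed without that mouse (mean -0.16, adjusted p = 0.0371). Hoxa2, of the same cluster as Hoxa5, was at 0.55 in mouse 1 and between -0.13 and 0.24 in the other 4 mice with a value, and Hoxd1 was at -0.52 in mouse 3 and between -0.17 and 0.073 in the others; neither passed. Hoxb4 was at -0.041 ± 0.12 (n = 5) and did not pass, and its probe also lies near a stronger one, that of Rad54l at -1.08.

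Number in the name follows the order within a cluster, low numbers being expressed toward the head. Set side by side after the values were seen, the 9 genes numbered 1 to 5 had a median of -0.068, with 7 negative means, 2 negative calls and 1 positive call, Hoxa5. The 9 genes numbered 6 to 13 had a median of 0.17, with 6 positive means and 5 positive calls and no negative one. Of all tested probes, 12.0% were called positive and 12.3% negative. Among these Hox calls, Hoxd4 of the lower numbers and Hoxd9, Hoxd13 and Hoxc13 of the higher ones were each lost without several single mice. No test was made of the split by number. Within the Hoxd cluster, the means were -0.16 for Hoxd1 and -0.15 for Hoxd4, against 0.34, 0.17, -0.0072, 0.15 and 0.18 for Hoxd8, Hoxd9, Hoxd10, Hoxd11 and Hoxd13. The Hoxa cluster ran the other way, with 0.18 for Hoxa2 and 0.66 for Hoxa5, against -0.038 for Hoxa7 and -0.13 for Hoxa11. In the Hoxb and Hoxc clusters, Hoxb7 and Hoxc13 were positive and the genes of lower number negative. Among 5 measured partners of Hox proteins, Meis2 was called positive at 0.35 and Pknox1 negative at -0.18, and Pbx2, Pbx3 and Meis3 did not pass; the median was -0.088.

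**Figure D3:**
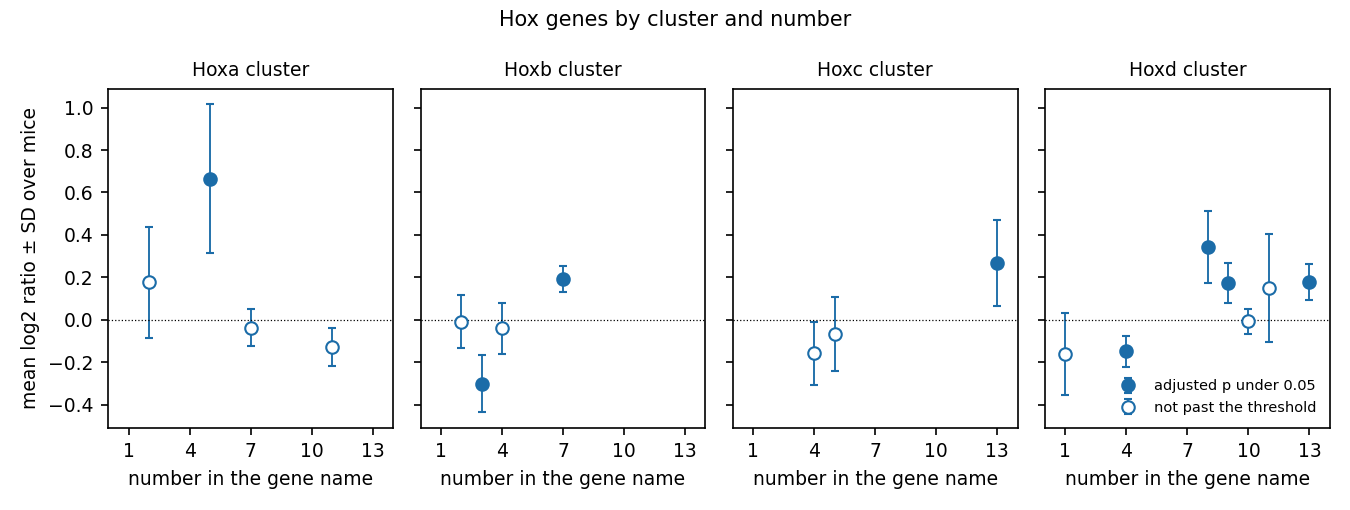
Mean deposited log2 ratio ± SD over mice (vertical axis) of the 18 Hox genes by the number in the gene name (horizontal axis), 1 panel per cluster; filled points passed adjusted p 0.05. In the Hoxd panel, Hoxd1 and Hoxd4 lie below 0 and the genes from 8 onward lie at or above it. In the Hoxa panel, Hoxa2 and Hoxa5 lie above 0 and Hoxa7 and Hoxa11 below it.

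T-box factors had 3 calls among 7 measured genes (42.9%, against 24.4% of all tested probes), all positive, and a median of 0.26. Tbx6, a factor of early mesoderm, was at 0.45 ± 0.21 (adjusted p = 0.0094), with mouse 1 lowest at 0.10 and mouse 6 highest at 0.74. Tbx2, which sustains proliferation in lung mesenchyme, was at 0.41 ± 0.23 (adjusted p = 0.0147), highest in mice 1 and 4 with 0.77 and 0.64 and between 0.23 and 0.30 in the others. Tbx1, a factor of the pharyngeal region and heart, was at 0.26 ± 0.073, with all mice between 0.16 and 0.38 (adjusted p = 0.00646). Tbx1 and Tbx6 kept their calls without any single mouse, while Tbx2 was at an adjusted p of 0.0501 without mouse 4.

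Tbx20, a factor of heart muscle, had the highest mean of the T-box genes and did not pass, at 0.61 ± 0.55 (adjusted p = 0.0512). Its ratios were 1.13, 1.13, -0.22, 0.97, 0.21 and 0.47 in mice 1 to 6, so that mouse 3 alone was negative. Without mouse 3 the mean was 0.78 and passed (adjusted p = 0.012). A second Tbx20 probe, measured on 4 arrays, was at -0.049 ± 0.031 and did not follow this pattern. Nkx2-5, an essential heart factor, was called at 0.21 ± 0.085 (adjusted p = 0.0133), with all mice between 0.087 and 0.29, and lost the call without mouse 4 (adjusted p = 0.0502). Gata4, its partner in the heart, was at 0.10 ± 0.21 and did not pass. Called heart muscle markers lay on the positive side. Of 10 measured genes of a 12-gene list, 8 were called, all positive, and the list's median was 1.09. The calls were led by Cox8b at 1.77, Myl4 at 1.60, Nppb at 1.45 and Myh6 at 1.44. The probe of Myh6 lies near a stronger one. The uncalled markers lay on both sides, Mb at 0.057 (n = 4) and Sln at -0.064 (n = 5). The list's mean was 1.63, 1.67, 0.22, 1.06, 0.51 and 1.10 in mice 1 to 6, and its part in the Tbx20 and Nkx2-5 values was not tested. Among 13 measured targets of Gata4, Nkx2-5 and Tbx5 in the heart, most of them also on the marker list, 7 were called positive and 1, the gap junction gene Gja1 at -0.83, negative.

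2 other T-box genes had probes that differed. Tbx18 was at -0.028 on 6 arrays, while a second probe on 5 arrays was at 0.26 and passed (adjusted p = 0.0466). Tbx15 was at -0.082 and 0.045 on its probes, neither of which passed. Tbx19, a pituitary factor, was at -0.044 ± 0.045.

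Forkhead factors had 4 calls among 20 measured genes (20%, against 24.4% of all tested probes), 3 negative and 1 positive, with a median of 0.014. Foxl1, a factor of the mesenchyme under epithelia, was at -0.29 ± 0.069 on 5 arrays, with all mice between -0.36 and -0.18 (adjusted p = 0.00812). Foxn1, known for its role in thymic epithelium and hair, was at -0.20 ± 0.079, between -0.32 and -0.084 (adjusted p = 0.0142). Foxc1, a factor of mesenchyme and vessels, was at -0.17 ± 0.07 (adjusted p = 0.0197). Foxo3, a factor of stress resistance under insulin control, was the positive one at 0.13 ± 0.044, with all mice between 0.065 and 0.18 (adjusted p = 0.032). The spreads between mice were narrow, so these small means passed. All 4 SDs were under the lowest SD of repeated control spots within an array, 0.081. Of the 23 called genes of all families, 8 had a mean no larger in size than the highest of those SDs, 0.23. Those SDs are of single spots and the means are over several arrays, so this does not place a call within technical noise. Foxl1 and Foxn1 kept the call without any single mouse, Foxc1 lost it without mouse 2, 4 or 6 (adjusted p up to 0.0668), and Foxo3 lost it without mouse 1, 2, 4, 5 or 6 (up to 0.0989).

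Foxa1, which opens chromatin in airway epithelium, was at -0.25 ± 0.25 and did not pass (adjusted p = 0.0767). It was at 0.057 in mouse 1 and -0.65 in mouse 3, and passed without mouse 1 (mean -0.32, adjusted p = 0.0448). Foxa3, a factor of mucous cells, was at 0.075 ± 0.19 (n = 5), while 4 of the 8 genes of the mucous marker list that holds it were called, all negative. Targets of Nkx2-1 and Foxa factors in lung epithelium were on both sides: of 9 measured, Scgb1a1 at 1.38, Cyp2b10 at 1.16, Scgb3a1 at 0.65 and Sftpc at 0.60 were called positive and Sftpa1 at -0.61 and Sftpd at -0.23 negative.

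Foxp1 and Foxp4, which restrain secretory differentiation in the lung epithelium, had their highest deposited ratios in the same mice, which with the sign turned would be the lowest. The ratio of Foxp1 was 0.89 in mouse 5 and 0.95 in mouse 6, against 0.087, 0.24 and 0.094 for mice 2, 3 and 4, with a mean of 0.45 ± 0.43 (n = 5, adjusted p = 0.0817). Foxp4 was at 0.76 and 0.49 in mice 5 and 6 and between -0.032 and 0.20 in the others, with a mean of 0.26 ± 0.31 (adjusted p = 0.111). A second Foxp4 probe gave 0.52 and 0.69 in mice 5 and 6 and 0.043 to 0.32 in the others. Foxf1, a factor of lung mesenchyme and capillaries, was at 0.20 ± 0.25 on 4 arrays, and Foxd3, a neural crest factor, at -0.18 ± 0.14; neither passed. The other 10 forkhead genes had means between -0.16 and 0.09.

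Foxm1, a driver of mitosis, was measured on 1 array and could not be tested. Of 8 measured genes among its mitotic targets, 6 were called, all negative, with a median of -0.70, led by Ccnb2 at -1.37, Aurka at -1.23, Aurkb at -1.01 and Nek2 at -0.73. The list's mean was -0.004 in mouse 3 and -1.17 to -0.63 in the other mice. Targets of Foxo factors had 1 call among 11 measured genes, the growth arrest gene Gadd45a at -0.38, and a median of -0.06.

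Krüppel-like factors had no call among 11 measured genes, against 24.4% of all tested probes. None had an unadjusted limma p under 0.05, and their median was -0.047. The median SD between mice was 0.20 for Klf genes, 0.21 for Gata and 0.19 for Tbx genes, against 0.16 over the 80 genes and 0.15 over all tested genes. Klf15, a metabolic factor induced by glucocorticoids, was at 1.05, 1.11, -0.72, 0.90 and 0.79 in mice 1, 2, 3, 4 and 6, so that only mouse 3 was negative. Its mean was 0.63 ± 0.76 (n = 5, adjusted p = 0.141). Without mouse 3, the mean over mice 1, 2, 4 and 6 was 0.97 and passed (adjusted p = 0.00127), with the only mouse of the other sign left out. Adipocyte markers were also on the positive side, with 4 calls among 7 measured genes of 10, a median of 1.32 and a list mean of 0.42 in mouse 3 and 0.65 to 1.87 in the other mice. Their part in the Klf15 values was not tested.

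Klf2, which keeps endothelium and T cells quiescent, was at 1.08 and 0.93 in mice 5 and 6, 0.40 and 0.33 in mice 2 and 4, and -0.19 and -0.15 in mice 1 and 3, with a mean of 0.40 ± 0.53 (adjusted p = 0.143). Mice 5 and 6 thus had the highest ratios for Klf2, as for Foxp1 and Foxp4. Klf16 was at -0.59 in mouse 1 and between 0.31 and 0.36 in mice 3, 5 and 6. Klf17 was at -0.17 ± 0.20 and passed without mouse 1 alone (mean -0.24, adjusted p = 0.0355). The epithelial factor Klf5 had means of -0.051 and 0.078 on its probes, and Klf1, Klf6, Klf7, Klf10, Klf12 and Klf13 had means between -0.12 and 0.0005. Endothelial targets of Klf2 and Klf4 had 2 positive calls, Tek at 0.93 and Nos3 at 0.21, and 1 negative call, Plat at -0.41, among 8 measured genes, with a median of 0.12.

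**Figure D4:**
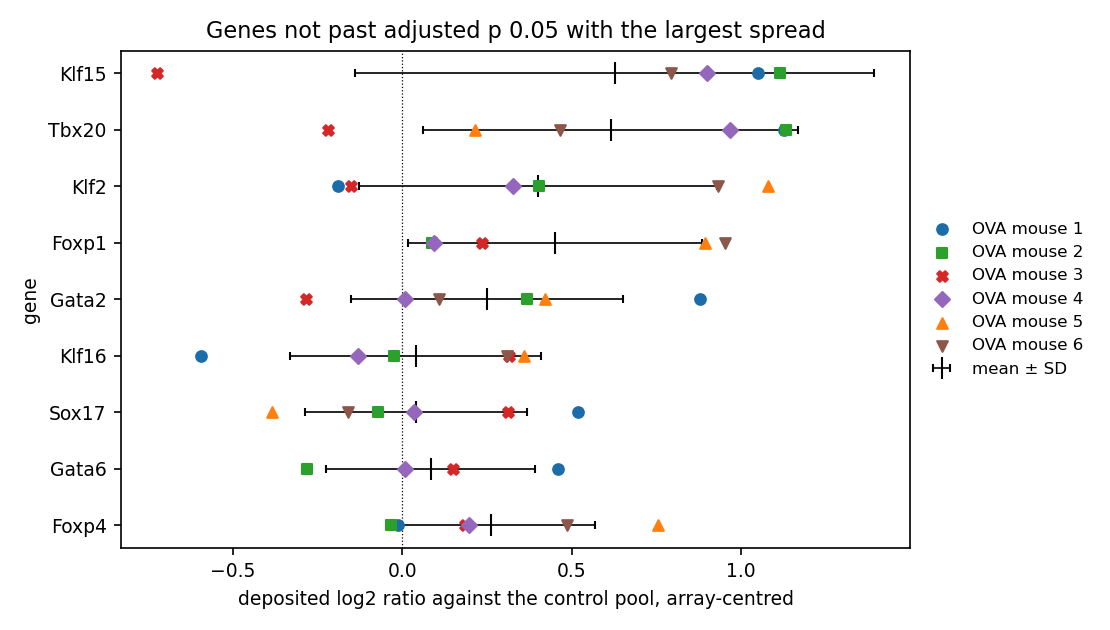
Deposited log2 ratio (horizontal axis) of 9 genes not past adjusted p 0.05 (rows), those that varied most between mice, largest SD at the top, with a symbol for each OVA mouse and the mean ± SD. Mouse 3 is the lowest for Klf15 and Tbx20 and the only mouse below 0 there, and mice 5 and 6 have the highest ratios for Klf2, Foxp1 and Foxp4.

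Gata factors had no call among 5 measured genes, against 24.4% of all tested probes. None had an unadjusted limma p under 0.05, and their median was 0.084. Gata2, a factor of mast cells and blood progenitors, was at 0.88 in mouse 1, -0.28 in mouse 3 and between 0.008 and 0.42 in the others, with a mean of 0.25 ± 0.40 (adjusted p = 0.22). Gata1, which drives erythroid cells, eosinophils and mast cells, was at -0.047 ± 0.18, from -0.36 in mouse 1 to 0.15 in mouse 3; its probe lies 24 numbers from that of Tnf, whose mean was -1.19, and the part of that probe was not tested. Gata5 was at -0.098 ± 0.19 and Gata6, a factor of lung epithelium, at 0.084 ± 0.31 on 4 arrays. Partners of Gata factors had 2 calls among 7 measured genes, the corepressor Cbfa2t3 at 0.63, with 1.41 and 1.17 in mice 5 and 6, and Zfpm2 at -0.40. Erythroid targets of Gata1 and Klf1 likewise had 1 call on each side among 7, Epor at 0.37 and Slc4a1 at -0.57.

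Nkx factors had 2 calls among 8 measured genes (25%, against 24.4% of all tested probes). These were Nkx2-5, given above, and Nkx2-2, a factor of the nervous system and pancreas. Nkx2-2 was at -0.26 ± 0.15 on 5 arrays, between -0.46 and -0.098 (adjusted p = 0.0295), and lost the call without mouse 2, 3, 4 or 6 (adjusted p up to 0.0861). Nkx2-3, which acts in vessels of gut and spleen, was at -0.20 ± 0.22 on 5 arrays and positive in mouse 3 alone, and Nkx2-6 was at -0.14 ± 0.082 on 4 arrays; neither passed. Nkx6-1, Nkx6-2, Nkx1-2 and Nkx2-4 had means between -0.084 and 0.072.

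Markers of further lung cell types give the setting of these values. Called genes were all negative among markers of macrophages (3 of 6 measured, led by Aif1 at -1.80), mucous cells (4 of 8) and erythroid cells (1 of 3, Slc4a1), and all positive among club cell markers (5 of 6, led by Bpifa1 at 1.62). The uncalled macrophage markers lay on both sides, Marco at 0.44 and Cd68 and Mrc1 at -0.23 each. The probe of Mrc1 lies near a stronger one. Called genes of other cell types were more mixed. They were on both sides for ciliated cells (3 positive and 1 negative of 7), alveolar type 2 cells (1 positive and 2 negative of 4) and fibroblasts and smooth muscle (1 positive and 3 negative of 6). Alveolar type 1 cells had 1 negative call of 6, Pdpn at -0.38. Their other markers had positive means of 0.12 to 0.48 that did not pass, and the list's median was 0.17. T cells had 1 positive call of 4, Cd247 at 0.43. Cd8a at -0.35 and Cd3e at -0.16 did not pass, Cd3d was on neither side, and the median was -0.08. None of 4 B cell and 2 eosinophil markers was called. Targets of Sox9 in cartilage had 1 positive call among 8, Col9a3 at 0.82, those of Sox10 in glia none among 3, with Gjb1 at 0.14 and Pmp22 at 0.10, and those of Tbx21 in lymphocytes 1 on each side among 8, Ifng at 0.23 and Klrg1 at -0.44.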

How the data were processed

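Lung RNA of 6 OVA mice was hybridised on 2-colour arrays against 1 pool of control lung RNA. The authors' deposited table holds log2 ratios (read as base 2 from their range) for 17280 probes; scanner, background correction, normalization, spot filter, dyes and direction were not stated in the sources used. Probes were named through the platform annotation, updated by gene ID to GRCm38.p6 names (used for names alone). A set of 170 rows repeating 10 sequences and 4 plant rows were left out, arrays were centred on their medians (-0.012 to 0.008 as deposited), and 11629 probes with a value on at least 4 arrays were tested against 0 with limma 3.58.1 (lmFit with an intercept, eBayes, two-sided) in R 4.3.3, with Benjamini-Hochberg adjustment over all of them. Arrays are 1 mouse each. The p-values set each mean against the spread between these 6 mice, with the gene's variance moderated by that of all tested probes. A gene with several probes was taken by the probe on most arrays, then first in the table. The fit was tested on simulated data with independent noise for each probe. Those data hold no pattern shared by the probes of a mouse, no error of the pool and no dye effect.

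Members and lists were chosen with earlier results of these data known. Named were all called genes, in each family the 3 largest means on 6 arrays, and up to 4 called genes of a list or up to 2 values where none was called; other genes were named after their values were seen, among them all of those described for their spread between mice. Lists were described by counts and medians without a set test. Promoters are from RefSeq. Alternatives were other centring, scaling, array minimums, variance estimates, probe choices, thresholds and leaving out each mouse. Plots and promoter searches used Python 3.11.15 with matplotlib 3.10.9.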

Additional observations from a re-analysis of the deposited data

Results flagged for a closer look

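In 7 of the 80 genes (8.75%), 1 mouse lay far from the others by Dixon's criterion. Chance alone gives about 1 in 20 where values are normally distributed. The share over all tested genes was not worked out, so 8.75% is not read as particular to these families. Mouse 3 was the outlying one in 3 of the 7 genes: Klf15 at -0.72 (the other 4 mice at 0.79 to 1.11), Hoxb4 at -0.25 (the others at -0.008 to 0.025) and Hoxd8 at 0.002 (0.35 to 0.47). Hoxd11 was at -0.35 in mouse 1 (0.18 to 0.39 in the others), Sox10 at 0.11 in mouse 4 (-0.06 to -0.022), Foxn4 at -0.63 in mouse 5 (-0.17 to 0.087) and Foxd4 at 0.29 in mouse 6 (-0.14 to -0.029).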

How the results depend on the processing

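The median ratio of the 80 genes stayed between -0.008 and 0.012 without any single mouse. Counts without single mice ranged from 13 to 23 calls in all, 4 to 9 negative, 8 to 15 positive, 2 to 4 in Fox, 3 to 6 in Sox, 4 to 7 in Hox (8 with all mice), 0 to 2 in Nkx, 2 to 4 in Tbx, 0 to 1 in Klf and 0 in Gata. Unmoderated variances gave 15 calls (12.4% of all probes were called then), 9 of them positive, with 3 in Sox, 5 in Hox and 1 in Nkx. At an adjusted p of 0.01 there were 4 calls (6.41% of all probes passed), 1 negative and 3 positive, with 1 in Fox, 1 in Sox, 0 in Hox and 0 in Nkx. With a mean of at least 0.5 in size as well as an adjusted p of 0.05 there were 2 (6.59% of all probes passed), both positive, 1 in Sox and 1 in Hox, and 0 negative, 0 in Fox, 0 in Nkx and 0 in Tbx. With only probes on all 6 arrays, which leaves 51 of the genes, Nkx had 1 call and the family medians were -0.16 for Fox, 0.16 for Sox and 0.011 for Nkx; leaving out 464 probes near a stronger probe put the Hox median at 0.072, with 21 calls left among 76 genes. No called gene changed sign in any setting run. The cause of the losses was not tested, beyond the stricter thresholds and fewer genes by construction. No paired analysis was possible because the mice form a single group. Arrays give no depth, and their number limits the precision.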
